A study of Mus musculus with 2 samples.

Results

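The Mirg cluster is a run of microRNA genes at the distal end of the imprinted Dlk1-Dio3 region on mouse chromosome 12. Its members were taken by position, as every microRNA gene of the GENCODE M21 annotation (mouse build mm10) on the plus strand of chromosome 12 that starts within a fixed window of positions, which opens between Mir882 and Mir379. This gave 39 genes of the 2202 in the deposited tables, from Mir379 (109709060 to 109709125) over Mir410 (109743715 to 109743795) to Mir3072 (109747878 to 109747960), within 38.90 kb. No measured value entered this rule. The nearest plus-strand microRNA gene before the window, Mir882, and the nearest after it, Gm27299, had 0 reads in either library.

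The RNA, of less than 30 nt, was taken from left cerebral cortex. The mice were females aged 14 days of the strain B6CASTF1/J, first-generation hybrids between C57BL/6J and a CAST strain. By the naming rule for such hybrids the mother's strain stands first. There was 1 group with 2 biological replicates, untreated as far as the labels say, so the comparisons are among members and between the libraries. The labels name several females for replicate 1 and a single female for replicate 2, they give both the same donor record, and they do not say whether animals were pooled. P-values therefore measure only the difference between these libraries, part of which may be technical.

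MicroRNAs are short RNAs cut from a hairpin in a longer transcript. Bases 2 to 8 of the mature strand, the seed, pair with target messenger RNAs and lower their output. Members of the cluster are known to be cut from a long non-coding transcript made from the maternal chromosome, with Mirg (microRNA-containing gene) as its annotated distal portion, and they are known mainly from brain and placenta. Transcription of the cluster in neurons is known to respond to activity through Mef2 factors. Mir134 is known for restraining dendritic spine size through the kinase Limk1, and Mir329 and Mir381 for a part in activity-dependent dendrite growth.

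The mature sequences of the most abundant members and of Mir134 are shown first, since the counts below are sums over such strands. They come from the RefSeq table for GRCm38.p6, the assembly behind mm10, which held 71 mature sequences for 38 of the 39 members. Each hairpin can give a strand from its 5′ arm and one from its 3′ arm, and the deposited counts do not separate them. All lie on the plus strand, and capitals mark the seed.
miR-382-5p, chr12:109733781-109733802: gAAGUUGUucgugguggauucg
miR-382-3p, chr12:109733819-109733840: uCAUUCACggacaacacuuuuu
miR-541-5p, chr12:109742422-109742446: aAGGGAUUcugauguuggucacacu
miR-541-3p, chr12:109742466-109742487: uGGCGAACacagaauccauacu
miR-379-5p, chr12:109709065-109709085: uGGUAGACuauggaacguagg
miR-379-3p, chr12:109709102-109709123: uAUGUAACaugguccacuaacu
miR-411-5p, chr12:109710190-109710210: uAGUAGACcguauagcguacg
miR-411-3p, chr12:109710225-109710246: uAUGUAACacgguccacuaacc
miR-409-5p, chr12:109743172-109743194: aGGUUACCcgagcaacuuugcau
miR-409-3p, chr12:109743204-109743225: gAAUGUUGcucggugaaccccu
miR-369-5p, chr12:109743431-109743452: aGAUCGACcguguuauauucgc
miR-369-3p, chr12:109743466-109743486: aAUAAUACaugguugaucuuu
miR-323-3p, chr12:109712558-109712578: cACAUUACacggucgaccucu
miR-668-3p, chr12:109734774-109734797: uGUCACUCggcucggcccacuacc
miR-485-3p, chr12:109734946-109734967: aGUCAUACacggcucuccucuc
miR-487b-5p, chr12:109727347-109727367: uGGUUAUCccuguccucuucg
miR-134-5p, chr12:109734145-109734166: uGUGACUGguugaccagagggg

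Reads were counted in whole numbers by the authors, and levels are given as CPM, the reads of a gene per 1000000 gene-assigned reads. Replicate 1 held 2740332 gene-assigned reads (35.4% of all its reads) and replicate 2 held 3207941 (33.3%). Each read stands for 1 strand of mature size, so CPM were not divided by hairpin length. Reads that mapped to several places, which made up 40.6% (replicate 1) and 37.9% (replicate 2), are in no gene count. Where no read was counted, the upper limit is taken as 3 reads, or 1.09 CPM for replicate 1 and 0.935 CPM for replicate 2. These limits, like all intervals here, take account of counting error alone. As a check of the tissue, the neuronal markers Mir128-1, Mir132, Mir137 and Mir138-1 had between 3655 and 15159 CPM in either library. The counts at the loci Mir9-1 (50 and 85 reads) and Mir124a-1 (6 and 10 reads) were low. The liver marker Mir122 stood at 60.9 and 43.0 CPM. Of the 3 muscle markers Mir206 stood at 28.8 and 31.2 CPM, and Mir1a-1 and Mir133a-1 had no read. Where a mature strand has copies at other genes its reads drop out, so such low counts cannot show that a microRNA was scarce. Mir128-1 shares an identical stretch of at least 20 nt with Mir128-2, so its count can leave out reads as well.

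The cluster was broadly present in the cortex. Of its 39 members 35 had at least 10 reads in each library, which is called detected here, against 17.7% of all 2202 annotated genes. Together the members held 227720 reads in replicate 1 and 292476 in replicate 2. This was 8.31% of gene-assigned reads in replicate 1 (exact binomial 95% interval 8.28 to 8.34%) and 9.12% in replicate 2 (9.09 to 9.15%), or 8.71 ± 0.571% (SD, n = 2). The share was higher in replicate 2 by 0.807 percentage points, beyond counting error. In tissue RNA, fewer cells that express a microRNA and less of it per cell cannot be told apart.

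The share of Mir487b alone differed by 0.672 percentage points, from 0.929% of gene-assigned reads (replicate 1) to 1.60% (replicate 2). Without it the cluster held 7.38% and 7.52%, 7.45 ± 0.0955% (n = 2). Mir382 went the other way, and without it the cluster held 6.26% and 7.48%, a difference of 1.23 percentage points. Cell type markers moved between the same libraries, in both directions. The summed level of the 6 neuronal markers was 28538 CPM in replicate 1 and 35612 CPM in replicate 2, but its members went both ways. Mir128-1 had 5376 and 15159 CPM, whereas Mir138-1 had 6789 and 3655 CPM and Mir132 had 9788 and 8428 CPM. The 3 endothelial and mural markers summed to 21215 and 13607 CPM, and the 2 oligodendrocyte markers to 4262 and 1466 CPM. The 4 markers of microglia and leukocytes summed to 691 and 1233 CPM, and the 2 erythroid markers to 952 and 564 CPM. Mir204 of the choroid plexus stood at 445 and 893 CPM. Mir145a (130 and 188 CPM), Mir155 (121 and 82.6 CPM) and Mir144 (43.4 and 53.6 CPM) went against the sums of their lists. These are the endothelial and mural, the microglia and leukocyte, and the erythroid list. The oligodendrocyte markers were both lower in replicate 2. The part of the markers in the difference was not tested.

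The reads of the cluster were concentrated in a few members. Mir382 was the most abundant, with 56239 reads in replicate 1 and 52425 in replicate 2, or 20523 and 16342 CPM (18432 ± 2956 CPM, n = 2). It made up 24.7% and 17.9% of the reads of the cluster. Mir487b followed with 25455 and 51364 reads, or 9289 and 16012 CPM. Mir541 had 37350 and 36652 reads (13630 and 11425 CPM), and Mir379, the first hairpin of the cluster, 26017 and 24539 reads (9494 and 7649 CPM). These 4 members held 63.7% of the cluster in replicate 1 and 56.4% in replicate 2, and the 20 detected members of lowest mean held 6.65% and 7.48%.

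Mir382 ranked first within the cluster in each library, but the places behind it were not resolved. In replicate 1 Mir541 came second, ahead of Mir379 and Mir487b, whereas in replicate 2 Mir487b came second at nearly the level of Mir382. Mir411 had 20821 and 20639 reads (7598 and 6434 CPM) and Mir409 had 11218 and 21207 reads (4094 and 6611 CPM), and they too changed places between the libraries. Mir369, whose product is known for binding AU-rich elements, stood at 2522 and 3245 CPM (2883 ± 511 CPM). Mir323 (2287 ± 1061 CPM), Mir485 (2255 ± 218 CPM) and Mir668 (2215 ± 1410 CPM) had means closer together than their spread. The 10 most abundant members held 85.2 ± 2.03% of the cluster (n = 2).

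**Figure D1:**
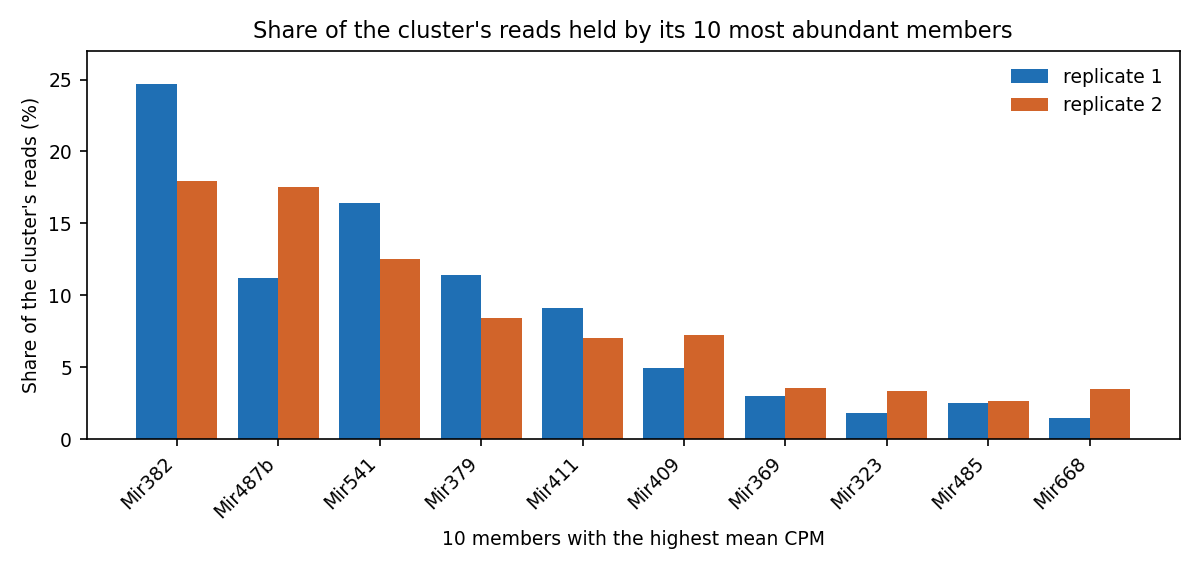
Share of the reads of the cluster (%, vertical axis from 0) held by its 10 most abundant members in replicate 1 (blue bars) and replicate 2 (orange bars). Mir382 held 24.7% and 17.9%, and Mir487b 11.2% and 17.6%, nearly level with it in replicate 2.

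Some members are best known from neurons. They were named for what is known of them, after their values had been seen, apart from Mir134 and Mir485. Mir134 had 3096 and 3770 reads, or 1130 and 1175 CPM (1152 ± 32.1 CPM, n = 2), which is 1.36% and 1.29% of the cluster. Mir329 had 626 and 1361 reads (228 and 424 CPM) and Mir381 had 1377 and 1519 reads (502 and 474 CPM). Mir485, known for acting on synaptic proteins, had 5758 and 7729 reads (2101 and 2409 CPM), and Mir495, for which Bdnf is a known target, had 456 and 553 reads (166 and 172 CPM).

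The 4 members that were not detected were Mir1197 with 3 and 5 reads, the predicted gene Gm27379 with 8 and 3 reads, and Mir654 and Mir453 with 0 reads in both libraries. The hairpins of Mir654 and Mir453 share no stretch of 20 nt with another microRNA gene. Among all annotated genes, 65.8% had 0 reads in both libraries. The 3 detected members of lowest mean were Mir544 with 12 and 49 reads, Mir758 with 46 and 123 reads and Mir494 with 69 and 141 reads. Mir494, at 25.2 and 44.0 CPM, starts 259 bp before Mir679, at 38.0 and 40.8 CPM.

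Levels varied from one hairpin to the next along the cluster. Neighbouring hairpins were close together, with a median gap of 556 bp and 25 of 38 gaps under 1000 bp, yet the levels of neighbouring detected members differed by a median of 5.23-fold, and 13 of 34 such pairs lay at least 10-fold apart. Mir379 and Mir411 open the cluster at 9494 and 7598 CPM in replicate 1. Mir299a starts 463 bp after Mir411 and had 203 and 521 reads, so that Mir411 was 103-fold higher in replicate 1 and 39.6-fold higher in replicate 2. Mir487b was 69.4-fold and 70.7-fold above Mir539, which starts 796 bp further on. At the distal end Mir409, Mir412, Mir369 and Mir410 follow each other closely, yet Mir409 had 11218 and 21207 reads, Mir412 2210 and 2943, Mir369 6911 and 10409, and Mir410 358 and 710. Across the 35 detected members, the log2 mean CPM and the order along the strand had a Pearson's r of 0.15 and a Spearman's rho of 0.14, given as a description, since the members share both libraries.

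**Figure D2:**
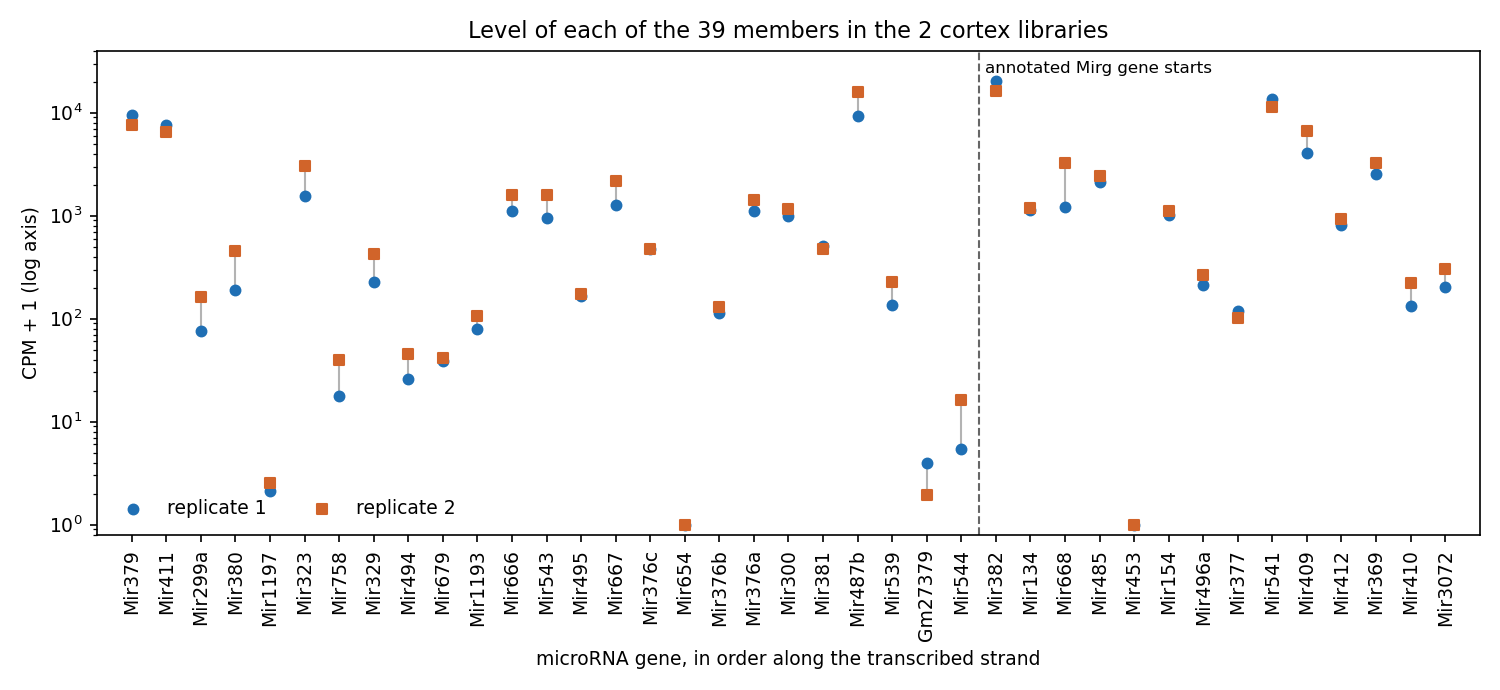
Level of each of the 39 members (CPM + 1, log axis) in their order along the strand, with replicate 1 as blue circles and replicate 2 as orange squares joined by a grey line. High and low members lie side by side, from Mir382 at 20523 and 16342 CPM to Mir654 and Mir453 at 0 reads, and the dashed line marks where the annotated Mirg gene begins.

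The annotated Mirg gene (109729764 to 109749460) covers only the distal members. The other 25 members lie before it and have no annotated host on their strand, and 22 of these were detected. Their share of gene-assigned reads was 3.54% (replicate 1) and 4.38% (replicate 2), or 2.61% and 2.78% without Mir487b. The 14 members within Mirg, of which 13 were detected, held 4.77% and 4.73%. Of these 14, the 4 within an exon of at least 1 Mirg transcript (Mir134, Mir485, Mir377 and Mir410) held 0.348% and 0.391%. The 5 that lie partly in an exon (Mir382, Mir668, Mir412, Mir369 and Mir3072) held 2.53% and 2.40%, most of it Mir382. The 5 in introns (Mir453, Mir154, Mir496a, Mir541 and Mir409) held 1.90% and 1.94%, most of it Mir541.

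The hairpins of the cluster resemble each other, which bears on whether reads can be placed. Over the 741 pairs of members the median identity of aligned hairpins was 49.5%, and the closest relative of a member had a median identity of 66.7%. A total of 15 members had a relative of at least 70% identity within the cluster. Mir376b and Mir376c were the closest pair, at 80.7%, and their microRNAs belong to the miR-376 family, which is known for A-to-I editing of its primary transcripts. Short runs of letters recurred among members. The letters UACUUG occurred in 10 of the 39 hairpins, against 2.32% of all 2202 annotated microRNA hairpins, and AGUAUC in 7 of 39, against 1.86%. The searches used the RNA strand only. No rule set in advance named these runs or the stretches in the mature strands below. The shares over all genes include the members, so these shares describe sequence and are no test of enrichment. Both occurred in 4 hairpins, of which 3 are shown, with the motifs in capitals.
Mir411 hairpin, chr12:109710175-109710256: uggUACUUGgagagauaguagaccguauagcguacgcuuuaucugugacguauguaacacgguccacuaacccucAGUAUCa
Mir494 hairpin, chr12:109715318-109715402: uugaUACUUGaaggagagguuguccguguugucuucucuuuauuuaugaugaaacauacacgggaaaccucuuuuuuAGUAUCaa
Mir369 hairpin, chr12:109743418-109743496: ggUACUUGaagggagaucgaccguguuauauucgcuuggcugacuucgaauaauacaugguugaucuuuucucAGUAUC

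The mature strands carried shared stretches as well. The 7 letters GGUCCAC occurred in 5 mature sequences of the RefSeq table, which holds 1738, and all 5 belong to the cluster. They are shown because these loci span the range of levels, from Mir379 with 26017 and 24539 reads and Mir411 with 20821 and 20639 reads, over Mir412 with 2210 and 2943 reads and Mir380 with 513 and 1458 reads, to Mir758 with 46 and 123 reads. Capitals mark the motif.
miR-379-3p: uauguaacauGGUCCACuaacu
miR-411-3p: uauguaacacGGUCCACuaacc
miR-380-3p: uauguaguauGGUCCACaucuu
miR-758-3p: uuugugaccuGGUCCACua
miR-412-3p: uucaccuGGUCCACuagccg

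A second stretch, CACGG, was found in 6 of the 71 mature sequences of the cluster (8.45%) and in 24 of the 1738 in the table (1.38%). It overlaps GGUCCAC in miR-411-3p by 2 letters. Mir382 at 20523 and 16342 CPM and Mir494 at 25.2 and 44.0 CPM were the highest and the lowest of these 6 loci in each library. A match of letters is a description and not a binding site.
miR-382-3p: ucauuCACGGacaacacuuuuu
miR-411-3p: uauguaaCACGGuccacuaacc
miR-323-3p: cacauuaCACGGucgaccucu
miR-485-3p: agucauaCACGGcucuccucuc
miR-154-3p: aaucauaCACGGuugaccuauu
miR-494-3p: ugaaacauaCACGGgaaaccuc

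Despite the resemblance, each of the 71 mature sequences searched occurred whole at 1 place among the annotated microRNA genes, with genes that overlap on opposite strands taken as 1 place. In comparison, 136 of the 1738 in the table (7.83%) occurred at more than 1 place. An identical stretch of 20 nt was shared with another microRNA gene by 5 of 39 members (Mir411, Mir758, Mir376c, Mir376b and Mir487b), against 49.4% of all annotated genes, and the partners were themselves members. The longest shared stretch was 31 nt, between Mir376c and Mir376b, and it is printed first below. The stretch of Mir411 and Mir758 has 21 nt, and that of Mir376b and Mir487b has 20 nt.
Mir376c and Mir376b: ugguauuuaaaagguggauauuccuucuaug
Mir411 and Mir758: gguccacuaacccucaguauc
Mir376b and Mir487b: cauccacuuuuucaguauca
Reads that lie wholly inside such a stretch match both genes. The 5 members held 1.75% and 2.31% of gene-assigned reads, so that 6.56% and 6.81% came from members without a shared stretch. Places outside annotated microRNA genes were not searched, and second arms of Mir487b, Mir376c, Mir539 and Mir485 were not analysed here.

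Among the 71 mature sequences, which leave out the second arms of those 4 members, there were 65 different seeds, and 6 of them were shared by a pair of members. The pairs are printed because the counts show how unevenly loci with the same seed were represented. Capitals mark the seed.
miR-1193-5p, chr12:109715716-109715735: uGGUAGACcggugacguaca
miR-376c-5p, chr12:109722733-109722754: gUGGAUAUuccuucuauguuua
miR-376b-5p, chr12:109723471-109723492: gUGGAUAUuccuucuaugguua
miR-410-5p, chr12:109743729-109743749: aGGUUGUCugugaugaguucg
miR-494-5p, chr12:109715334-109715355: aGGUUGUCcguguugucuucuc
miR-496a-5p, chr12:109739132-109739152: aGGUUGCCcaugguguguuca
miR-453, chr12:109735669-109735692: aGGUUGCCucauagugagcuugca
miR-758-5p, chr12:109712823-109712843: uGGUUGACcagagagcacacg
miR-1197-5p, chr12:109712361-109712381: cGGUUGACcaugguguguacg

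The seed of miR-1193-5p is that of miR-379-5p, printed above, while Mir1193 had 214 and 334 reads against 26017 and 24539 for Mir379. Since 5′ and 3′ arms are not separated, these are levels of the loci and not of the seeds. The 3′ arms of Mir379 and Mir411 share the seed AUGUAAC, and their loci had levels within 1.25-fold of each other in each library. miR-376c-5p and miR-376b-5p differ at 1 base of the whole strand, and their loci had 1309 and 1512 reads and 309 and 417 reads. Mir410 (358 and 710 reads) and Mir494 (69 and 141 reads) share GGUUGUC. Mir496a (583 and 857 reads) shares GGUUGCC with Mir453, which had 0 reads in both, and Mir758 (46 and 123 reads) shares GGUUGAC with Mir1197 (3 and 5 reads). Of the 71 mature sequences 11 share a seed with a microRNA outside the cluster, among them miR-410-3p with the rodent miR-344d-3p and miR-344e-3p, and miR-329-3p with miR-362-3p.

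All reads counted on members came from the strand of the cluster transcript. In the column for the opposite strand the 39 members had 0 reads in both libraries, which allows up to 3 reads a library. MicroRNA genes are annotated on the opposite strand at 5 members: Mir299a, Mir380, Mir376a, Mir539 and Mir409. In the deposited column that ignores strand these 5 stand at 0 in both libraries, and that column alone has reads set aside as ambiguous. On the RNA strand they held 15369 and 28517 reads, of which Mir409 alone gave 11218 and 21207.

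**Figure D3:**
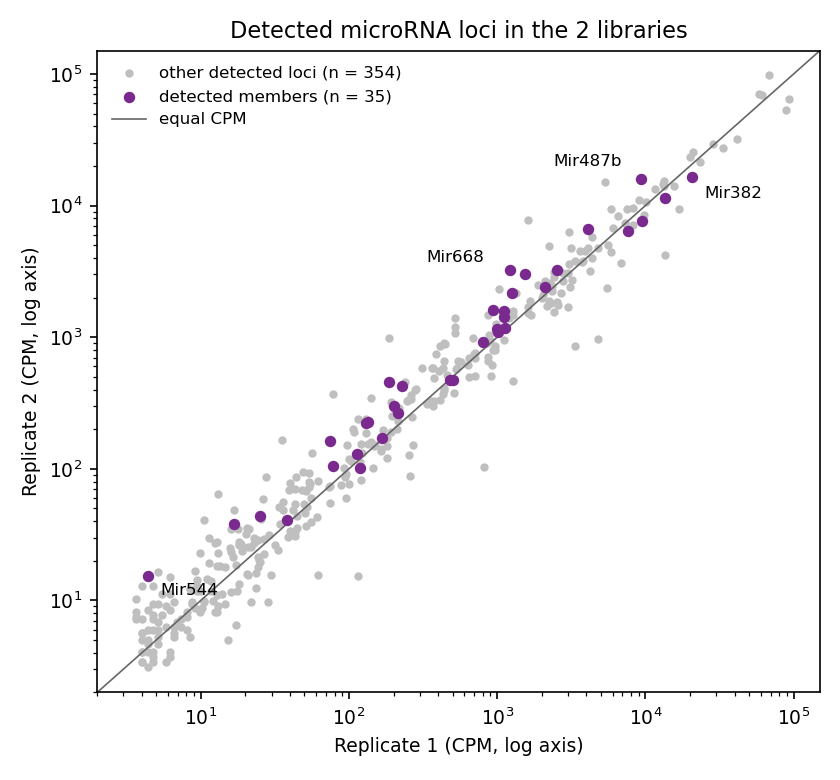
CPM in replicate 1 (horizontal, log axis) against CPM in replicate 2 (vertical, log axis) for the 35 detected members (purple) and the other 354 detected genes (grey), with a line of equal CPM. The members run along the line over the whole range, but most lie above it, among them Mir668 and Mir487b. Mir382 lies below it. CPM are scaled by library totals. With that scaling the median log2 ratio was 0.36 over detected members and 0.16 over all detected genes.

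The order of the members was closely similar in the libraries, but single members differed by more than counting error. Pearson's r of log2(CPM + 1) between the libraries was 0.985 over the 35 detected members and 0.982 over the 354 detected genes outside the cluster, as a description across genes that share both libraries. For each gene the libraries were compared by an exact binomial test (two-sided) on reads scaled by the trimmed mean of M values (TMM), adjusted by Benjamini and Hochberg over all 389 detected genes. By this test 26 of 35 members differed (74.3%), against 58.4% of all detected genes. Among genes with at least 50 reads in each library 25 of 33 members differed (75.8%), against 211 of 283 genes (74.6%). Of the 26 differing members, 18 (51.4% of the 35 detected) were higher in replicate 2, against 28.8% of all detected genes. The other 8 (22.9%) were lower, against 29.6%. When at least 50 reads were required, 17 of 33 members were higher and 8 lower, against 105 and 106 of 283 genes. The median log2 ratio of replicate 2 to replicate 1 over the 35 detected members was 0.19, against −0.0098 over all detected genes. Of the 35 members 22 lay within 1.5-fold, against 67.4% of all detected genes. Scaled by library totals, which raises every log2 ratio by 0.17, 24 of 35 members were higher and 4 were lower, and over all 389 detected genes the calls went from 112 higher and 115 lower to 159 higher and 77 lower.

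Of the 5 most abundant members, Mir382, Mir541, Mir379 and Mir411 were lower in replicate 2 and Mir487b was higher. Mir382 had a log2 ratio of −0.50 (exact 95% interval −0.52 to −0.48), Mir379 of −0.48 (−0.51 to −0.46), Mir541 of −0.43 (−0.45 to −0.41) and Mir411 of −0.41 (−0.44 to −0.38). These 4 are the members that stayed lower when library totals were used. Mir487b had a log2 ratio of 0.61 (0.59 to 0.63) and Mir409 of 0.52 (0.49 to 0.55). Mir134 had a ratio of −0.12 (adjusted p = 0.0020, exact binomial test), which turned to 0.057 with library totals (adjusted p = 0.15). The distal Mir412 (0.013), Mir485 (0.025) and Mir154 (−0.064) did not pass the test.

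Differences of at least 2-fold that passed the test were found in 4 of 35 members, each higher in replicate 2, against 6.43% of all detected genes higher and 4.88% lower. Mir668 had 3337 and 10304 reads, a log2 ratio of 1.23 (1.17 to 1.28). Mir380, whose 5′ strand is known for repressing p53 in neuroblastoma, had 513 and 1458 reads (1.11, 0.96 to 1.26, adjusted p = 4.7e-55 in the exact binomial test). Mir758 with 46 and 123 reads (1.02, 0.52 to 1.54) and Mir544 with 12 and 49 reads (1.63, 0.70 to 2.68) rested on few reads, and 2 of the 4 were left when at least 50 reads were required in each library. No member was at least 2-fold lower before or after adjustment, under TMM or DESeq2 scaling. The lowest log2 ratio was −0.50, that of Mir382. All these tests compare the libraries and not conditions.

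**Figure D4:**
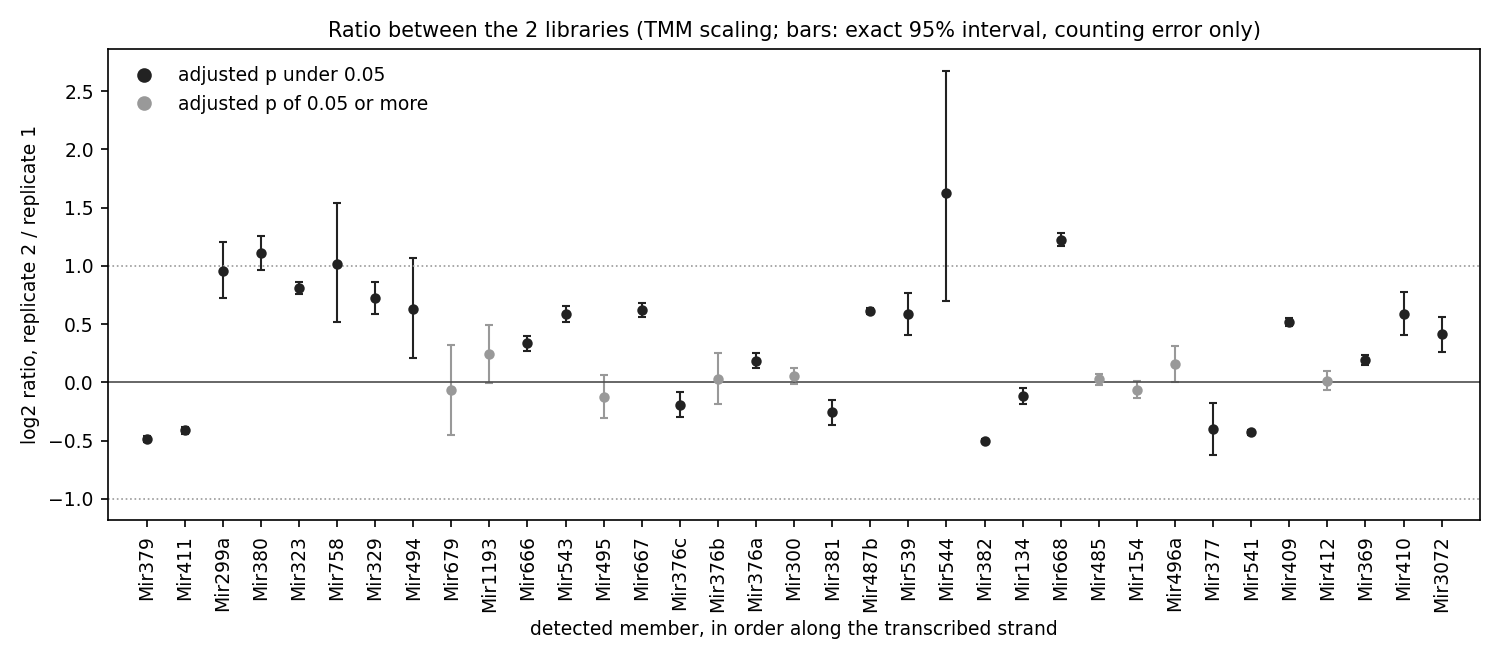
Log2 ratio of replicate 2 to replicate 1 (vertical axis, TMM scaling) for the 35 detected members in their order along the strand, with exact 95% intervals for counting error as bars. Black points passed the exact binomial test at an adjusted p under 0.05, grey points did not, and dotted lines mark 2-fold.

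Median ratios before and within Mirg are given side by side, without a test of their difference. The 22 detected members before Mirg had a median log2 ratio of 0.46, with 13 higher and 4 lower past the test. The 13 within Mirg had a median of 0.025, with 5 higher and 4 lower. Over all 389 detected genes the median was −0.0098, with 28.8% higher and 29.6% lower. Scaling by library totals raises each of these ratios by 0.17. From Mir299a to Mir494 each of the 6 detected members was higher in replicate 2, with log2 ratios from 0.63 for Mir494 to 1.11 for Mir380, while Mir379 and Mir411 just before them were lower. This run was noticed in the values and was not tested.

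Of the 4 groups of microRNA genes compared within the Dlk1-Dio3 region, the cluster held the most genes and came second in reads. The Rtl1-antisense group around Mir127 and Mir433, with 5 of its 6 plus-strand genes detected, had 8.93% and 9.60% of the gene-assigned reads. The Meg3-proximal group, led by Mir770, had all 6 of its matched genes detected (6 of 8 listed names matched) and held 4.70% and 3.76%, and the Rian-region group of 3 held 0.415% and 1.04%. The median level of detected genes was 862 CPM in the Mirg cluster, 2756 CPM in the Rtl1-antisense group, 1052 CPM in the Meg3-proximal group, 2382 CPM in the Rian-region group and 149 CPM over all detected genes. Mir3070a (15.9 CPM) and Mir3070b (40.0 CPM), just after Mir665, were left out of the Meg3-proximal group by their names. With them its median would lie between Mir665 (506 CPM) and Mir673 (729 CPM), below that of the Mirg cluster. Between the libraries the cluster, the Rtl1-antisense group and the Rian-region group had higher shares in replicate 2 and the Meg3-proximal group a lower one. In the Rian-region group Mir370 had 1616 and 7718 CPM, while Mir341 had 2337 and 2428 CPM and Mir1188 had 196 and 250 CPM. The median log2 ratio was 0.19 in the cluster, 0.17 in the Rian-region group, −0.047 in the Meg3-proximal group and −0.0098 in the Rtl1-antisense group. With 2 libraries of 1 group, these differences between groups of genes have no test.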

How the data were processed

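The authors deposited whole read counts per microRNA gene for each library, made with mm10 and GENCODE M21 per the file lists deposited beside them. No source used here gives the aligner, trimming or counter. The 3 columns of counts have no names. Judged from their values, the first ignores strand, the second holds the RNA strand (used here) and the third its opposite. Leaving out the 4 rows without a gene name keeps 35.4% and 33.3% of reads as gene-assigned. All 2202 identifiers matched the annotation.

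Detected means at least 10 reads in each library. Scaling was by TMM (edgeR 4.0.16), with DESeq2 1.42.0 size factors and library totals as alternatives. With 1 group, edgeR's quasi-likelihood test has nothing to compare. Reads were therefore compared by the exact binomial test, two-sided, adjusted by Benjamini-Hochberg over all detected genes (threshold 0.05). The test was checked on counts simulated with counting error alone, so that check does not cover other variation between the libraries. Hairpins were aligned with Biopython 1.88.

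Members and lists were chosen with earlier results of these data known. Named were the 10 most abundant members, Mir379, Mir382, Mir487b, Mir541, Mir134, the first and last member, those at least 2-fold apart, those sharing a seed, the 3 lowest detected and those with 0 reads. Others are named as chosen after their values were seen, or because a count or a motif includes them.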

Additional observations from a re-analysis of the deposited data

How the results depend on the processing

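The share of gene-assigned reads held by the cluster (8.71%) was 8.58% in the column without strand, 8.31 to 9.12% with 1 replicate left out, 6.68% without members that share 20 nt, and 7.45% without Mir487b or 6.87% without Mir382, alternatives chosen after seeing the data. The number of detected members (35) was 30 without strand, and 33 to 37 under the other minimums. The 26 differing members were 21 to 28 under the alternatives. With library totals 4 members were lower instead of 8 and 24 were higher instead of 18, while over all detected genes 77 were lower instead of 115 and 159 were higher instead of 112. The ratio of Mir134 then turned from −0.12 to 0.057. With at least 50 reads required, 2 members instead of 4 were at least 2-fold higher. The median log2 ratio (0.19) stayed between 0.10 and 0.36. No paired analysis was possible because there was 1 group, and leaving out a replicate leaves no ratio to test. With n = 2, the SD itself is poorly known.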

Other observations

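Hairpin features are given as descriptions, with no test, since members share both libraries. The 39 member hairpins had a median GC content of 43.6% (29.1% for Mir376c to 72.3% for Mir3072), against 50.8% over all 2202 annotated genes. Over the 35 detected members, the log2 mean CPM had a Spearman's rho of 0.20 with GC content, 0.059 with hairpin length and 0.0078 with the folding energy computed by RNAfold. The log2 ratio between the libraries had a Spearman's rho of −0.30 with the log2 mean CPM (Pearson's r −0.41), against −0.052 (−0.069) over all 389 detected genes. Its Spearman's rho with GC content was of like size, at 0.30, against 0.16 over all 389 detected genes. Over the members it was −0.32 with folding energy and 0.12 with hairpin length. Folding energies ran from −46.9 kcal/mol for Mir666 to −16.6 kcal/mol for Mir376a.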
